A study of Homo sapiens with 7 samples.

Results

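The genes that encode the proteins of the cytosolic ribosome were described here in HepG2, an established human liver cancer cell line. A locus of the expression table was a member if it lay on a main chromosome and one of its symbols had the form of a ribosomal protein symbol (RPL or RPS with a number and at most the letter A, X or L, the stalk genes RPLP0, RPLP1 and RPLP2, or RPSA). The rule used names only and no measured value, and it found 80 members among 22113 named loci. Of the members, 30 encode small subunit proteins, 43 large subunit proteins and 3 the P-stalk of the large subunit. The other 4 are copies of other members (RPL3L, RPL10L, RPL39L and RPS27L), here called paralogs.

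The study mapped nucleosomes of HepG2 by native MNase-Seq, placed ChIP-Seq signals of H3K4me3, H3K9ac, H3K27ac, H3K27me3 and H3K9me3 on them, and measured RNA by RNA-Seq. There were 7 samples, 1 per assay, all from cells with no treatment named, so no groups could be compared and no P value was computed. HepG2 is a single line, and results from it describe that line alone. The RNA sample has 2 columns of FPKM (fragments per kilobase of transcript, scaled to the number of mapped fragments), here called run 1 and run 2. The sources used here do not give what sets the runs apart, so they were treated as repeat measurements and their mean as 1 replicate.

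A ribosome has a small subunit, which holds the mRNA and reads its codons, and a large subunit, which joins the amino acids. Each carries a set of proteins around its rRNA, nearly all present as a single copy per ribosome, whereas the acidic stalk proteins form dimers that recruit translation factors. Most vertebrate ribosomal protein mRNAs begin with a C followed by a run of pyrimidines, the 5' terminal oligopyrimidine (TOP) tract, through which mTOR signalling controls their translation.

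The hepatocyte genes ALB, with 9933 FPKM in run 1 and 10088 in run 2, and APOA2, with 5095 and 5323, were among the most abundant RNAs of the sample. Of 12 loci of hepatocyte genes examined, 8 had a mean FPKM of at least 100 and 7 of at least 1000. TTR had 152, FGB 56.6, and HNF4A 64.6 and 4.65 in its 2 loci. PTPRC, CD3E and KRT5, which mark leukocytes, T cells and squamous epithelium, were listed at 0 in both runs, and EPCAM, an epithelial gene, had 96.9. The other genes examined as markers of other cell types were COL1A2 with 1.16, COL1A1 with 0.164, PECAM1 with 0.137 and GFAP with 0.0677. Each ChIP-Seq and MNase-Seq list gives positions without read counts, so the depth behind a single mark is unknown.

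Start sites were taken from RefSeq on GRCh38.p14, whose table held 64 of the 80 members by symbol with 79 listed starts. Members without an entry included RPL23, RPL23A, RPL30, RPL37, RPL39L, RPL3L, RPL5, RPL7, RPL8, RPS15A, RPS2 and RPS20. A tract was called where the first transcribed base was C and at least 4 pyrimidines followed it on the strand of the gene. By this rule 46 of the 64 members had a tract at a listed start, or 71.9% (95% exact Clopper-Pearson interval 59.2 to 82.4), compared with 5.14% of all 27305 genes in the table. Tracts were 5 to 19 bases long with a median of 8, and the longest was that of RPL39. The following stretches run from 40 bases before the listed start to 20 bases after it, with the tract in capitals, and are shown for genes at the top of the expression order.
RPL37A (chr2:216498804-216498863, plus strand): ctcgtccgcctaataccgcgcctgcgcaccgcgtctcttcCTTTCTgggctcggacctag
RPS12 (chr6:132814529-132814588, plus strand): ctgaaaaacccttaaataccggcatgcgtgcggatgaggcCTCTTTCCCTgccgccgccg
RPS27 (chr1:153990722-153990781, plus strand): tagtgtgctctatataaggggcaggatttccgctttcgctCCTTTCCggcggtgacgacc
RPS18 (chr6:33272035-33272094, plus strand): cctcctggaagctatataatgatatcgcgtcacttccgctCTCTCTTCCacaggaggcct

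The 3 P-stalk genes and RPSA, a small subunit protein also known as the laminin receptor precursor, each had a tract, and that of RPLP2 was the longest of these.
RPLP1 (chr15:69452778-69452837, plus strand): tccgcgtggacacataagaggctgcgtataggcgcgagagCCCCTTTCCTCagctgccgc
RPLP0 (chr12:120201092-120201151, minus strand): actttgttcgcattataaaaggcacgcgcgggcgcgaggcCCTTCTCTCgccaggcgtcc
RPLP2 (chr11:809927-809986, plus strand): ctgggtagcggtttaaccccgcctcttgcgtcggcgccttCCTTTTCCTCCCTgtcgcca
RPSA (chr3:39406680-39406739, plus strand): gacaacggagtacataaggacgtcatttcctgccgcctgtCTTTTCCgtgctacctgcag

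A low level of RNA did not go with the lack of a tract in every case, as RPL27A, the lowest member other than paralogs, had one. RPS29, RPS26, RPS27L and RPL10L had none at the listed start, and their stretches are shown entirely in lower case. Starts were matched to members by symbol and not by position. A listed start, such as that of RPS29, need not be the start behind the FPKM.
RPL27A (chr11:8682752-8682811, plus strand): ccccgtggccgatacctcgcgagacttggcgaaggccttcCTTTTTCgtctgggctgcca
RPS29 (chr14:49598691-49598750, minus strand): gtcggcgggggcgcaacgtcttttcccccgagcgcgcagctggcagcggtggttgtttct
RPS26 (chr12:56041878-56041937, plus strand): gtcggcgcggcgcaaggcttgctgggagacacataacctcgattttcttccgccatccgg
RPS27L (chr15:63157458-63157517, minus strand): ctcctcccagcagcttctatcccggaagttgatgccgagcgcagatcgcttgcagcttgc
RPL10L (chr14:46651762-46651821, minus strand): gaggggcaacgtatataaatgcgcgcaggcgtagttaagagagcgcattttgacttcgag

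Of the 79 listed starts, 51 began with C, 14 with A, 9 with G and 5 with T. When the tract was allowed to begin within 5 bases of the start, 53 of the 64 members had one (82.8%), beside 25.2% of all genes. With the first listed start alone, 42 members had one (65.6%), beside 4.04% of all genes. The share with a tract was 15.1% in 410 other genes with an FPKM of at least 100, 8.70% in 69 mitochondrial ribosomal protein genes and 2.94% in 34 proteasome genes. A list of further genes known to give TOP mRNAs held a tract in 6 of 7 genes. Members with a tract had a median FPKM of 1069 and the 18 without had 916. Both sets spanned most of the range, from 121 to 3031 and from 0 to 2706. The 18 without included the paralogs RPL10L at 0 and RPS27L at 143, and those with a tract included no paralog.

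Short motifs were searched on both strands from 250 bases before to 50 bases after each start. The letters CCGGAAG, a core bound by ETS-family factors, were found in 23 of 64 members (35.9%), compared with 12.2% of all genes and 23% of genes with an FPKM of at least 1. These letters were in 26.3% of the 410 other genes with an FPKM of at least 100, in 43.5% of the mitochondrial ribosomal protein genes and in 35.3% of the proteasome genes, all inside the interval of the members (24.3 to 48.9). RPS18, RPL13A, RPS6, RPLP2, RPL3 and RPL27A were among these 23. The other letters were found at shares nearer to those of all genes. GGGCGG, a GC box, was in 38 members (59.4%, beside 48.3% of all genes and 77.5% of those with an FPKM of at least 1). CCAAT was in 23 (35.9%, beside 39.7%), AAGATGG in 8 (12.5%, beside 7.11%), GCATGCG in 5 (7.81%, beside 4.74%) and CACGTG, an E-box, in 4 (6.25%, beside 8.77%). AAGATGG was in 34.8% of the mitochondrial ribosomal protein genes and 23.5% of the proteasome genes. TATAAA was in 6 members (9.38%, beside 14%), namely RPLP0, RPS3, RPL3, RPL7A, RPS28 and RPL10L, and within the last 50 bases before the start it was in 5 (7.81%, beside 4.38%). In the 410 other genes with an FPKM of at least 100, GGGCGG was in 75.9%, CCAAT in 50.2% and CACGTG in 16.1%. Each was above the interval of the members (46.4 to 71.5, 24.3 to 48.9 and 1.73 to 15.2). AAGATGG (12.7%), GCATGCG (6.34%), TATAAA (12.9%) and TATAAA within the last 50 bases (8.54%) were inside it. The shares of CCAAT and CACGTG lay close to the upper ends of those intervals. The 410 genes had 606 listed starts and the 64 members had 79, so more windows per gene were searched in the 410. Whether this changed the shares was not tested. A match describes the letters of the window and does not show that a factor bound there.

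All 76 members other than the paralogs had an FPKM of at least 100. The median of these 76 was 1034, with quartiles of 759 and 1319, and 57 of them lay within 2-fold of the median. The extremes were RPL27A at 121 and RPL37A at 3031, which is 25.02-fold. With the paralogs, 78 of 80 members had at least 1 FPKM, compared with 51.3% of all named loci, and 77 had at least 100, compared with 3.27%. An FPKM of at least 1000 was reached by 40 members and by 0.353% of all named loci, which is 78 loci. As this is a bulk measurement of 1 cell line, fewer expressing cells and less RNA per cell cannot be told apart.

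Members took 54 of the 100 highest places among named loci and 25 of the 50 highest. The first of them was at place 7, and the last one other than paralogs at place 578. Their summed FPKM was 9.80% of that of all loci in the table in run 1, and in run 2 it was 8.79%. The same sum was 0.455% for 79 mitochondrial ribosomal protein loci and 0.436% for 39 proteasome loci, over the mean of both runs, in which members held 9.26%. The medians of these sets were 42.6 and 69.2 FPKM. All named loci together held 55.7% of the summed FPKM in run 1 and 50.5% in run 2. The rest lay in loci outside that set. The sum over all loci was 857059 in run 1 and 982212 in run 2. Some high places rest on 1 run, as for MIR3650 with 0 and 7706 FPKM and IL12RB2 with 5476 and 0.0324.

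**Figure D1:**
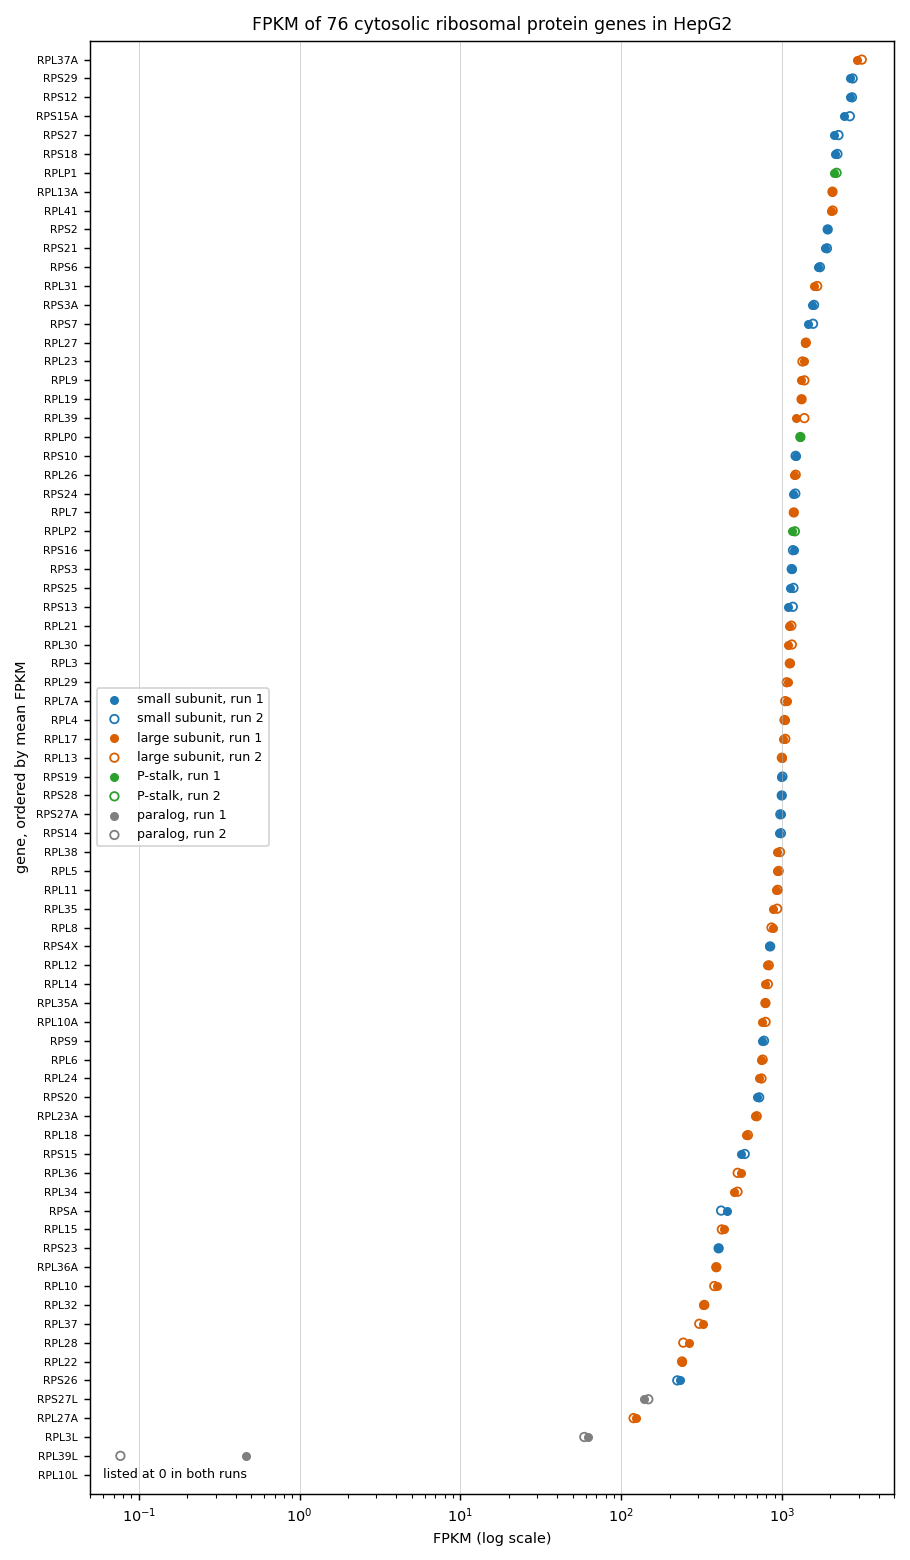
FPKM of 76 of the 80 members on a log axis, ordered by their mean, with run 1 as filled and run 2 as open circles and the subunit as the colour. From RPL27A at 121 to RPL37A at 3031 the order is gradual, and RPL3L, RPL39L and RPL10L, which is listed at 0, lie below it.

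The 8 members with the most RNA were 5 small subunit genes, the stalk gene RPLP1 and 2 large subunit genes. RPL37A, which encodes a small zinc-binding protein of the large subunit, had 2929 FPKM in run 1 and 3134 in run 2. RPS29, a zinc-binding protein of the small subunit, had 2662 and 2749. RPS12 had 2633 and 2724, so that RPS29 and RPS12 differed by less than their runs did. RPS15A, a further small subunit gene, had 2416 and 2641, which overlaps the range of RPS12. RPS27, also a zinc-binding protein, had 2118 and 2245, RPS18 had 2147 and 2210, and RPLP1 had 2110 and 2184. The ranges of these 3 genes overlapped. RPL13A, a large subunit protein that also takes part in a complex repressing translation after interferon treatment, had 2036 and 2060.

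At the low end, RPL27A had 123 and 119 FPKM in the runs, RPS26 had 231 and 223, RPL22 had 238.8 and 239.0, and RPL28 had 264 and 243. RPS26 lies where the mRNA leaves the small subunit, and RPL22 is a large subunit protein not required for general translation. The loci of RPL27A and RPL28 share their coordinates with other loci of the table, whereas RPS26 and RPL22 have their own. RPSA had 456 and 418 and its locus holds 2 snoRNA genes.

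The stalk is made of RPLP0, which anchors it to the large subunit, and of the acidic proteins RPLP1 and RPLP2. RPLP0 had 1302 FPKM in run 1 and 1300 in run 2, and RPLP2 had 1156 and 1202. RPLP1 exceeded both in each run. The ranges of RPLP0 and RPLP2 did not overlap, but they lay closer to each other than to that of RPLP1.

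Small subunit members had a median FPKM of 1152 and large subunit members, apart from the stalk, of 928. On the scale of log2(FPKM + 0.01), with the stalk in the large subunit and without paralogs, the mean was 10.14 with an SD of 0.83 over 30 small subunit genes, and 9.73 with an SD of 0.90 over 46 large subunit genes. The difference of the means was 0.41, and no test of it was made. With the paralogs it was 0.96, as RPL10L and RPL39L lie far below the rest and belong to the large subunit.

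The paralogs stood apart from the genes they resemble. RPL10L, a testis copy of RPL10 without introns, was listed at 0 in both runs, whereas RPL10, which joins the large subunit late in assembly, had 393 and 379 FPKM. RPL39L, whose product replaces that of RPL39 in the testis, had 0.462 in run 1 and 0.0768 in run 2, and RPL39, which lines the peptide exit tunnel, had 1225 and 1377. RPL3L, the heart and skeletal muscle copy of RPL3, is listed with SEPX1 as a joint locus at 62.1 and 58.9, so how much of it is RPL3L RNA is unknown. RPL3 itself had 1115 and 1118. RPS27L, a gene induced by p53, had 139 and 147, compared with the 2118 and 2245 of RPS27.

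Reads from processed pseudogenes can match their parent genes, and how the authors counted such reads is not given in the sources used here. Among named loci, 25 carry the symbol of a ribosomal protein pseudogene. Of these, 11 had an FPKM of at least 1 and 5 were listed at 0, and the highest was RPSAP58 at 32.3. Their sum was 85.7, compared with 85149 for the members.

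The runs gave the members nearly the same values. Run 2 was higher for 56 members, run 1 for 23, and RPL10L was at 0 in both, with a median log2 difference of 0.03. Over the 724 loci with an FPKM of at least 100, 385 were higher in run 2. Apart from the paralogs, differences of run 2 minus run 1 ranged from -0.13 for RPSA to 0.17 for RPL39 on the log2 scale, and RPS15A followed with 0.13. The largest difference was that of RPL39L, at -2.44, between values under 1 FPKM.

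Many ribosomal protein genes carry snoRNA genes in their introns, and 26 member loci had the same coordinates as at least 1 snoRNA locus, compared with 0.963% of 21809 named loci other than snoRNAs. These held 51 snoRNA loci, of which 33 were listed at 0. RPL13A, for example, holds 4 and RPS12 holds 3. In all, 46 members share their coordinates with another locus, 34 have their own, and 7 are listed jointly with another symbol. Of the 724 named loci with an FPKM of at least 100, 418 have their own. No member shares its coordinates with another member. Members lie on 21 chromosomes, with 12 on chromosome 19 and 8 on chromosome 3. These counts were not set against the number of all named loci on each chromosome. Few members are neighbours, and examples are RPL3L and RPS2, 7343 bp apart on chromosome 16, and RPS26 and RPL41, 72058 bp apart on chromosome 12.

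Nucleosome positions were counted within 2 kb of both ends of each locus, since the table gives no strand. They are named by their exact set of marks, "T" for H3K4me3/H3K9ac/H3K27ac, "D" for H3K4me3/H3K9ac and "A" for H3K4me3 alone. Of 3057 positions near members, 327 were "T", or 10.7% (9.62 to 11.8), 113 were "D", or 3.70%, and 89 were "A", or 2.91%. Near other named loci with an FPKM of at least 100, 9.49% of positions were "T", 2.58% "D" and 3.09% "A". Intervals cover counting error only, and neighbouring positions are not independent.

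H3K4me3 was present near 73 of the 80 members, H3K9ac near 72 and H3K27ac near 72. Among all named loci the shares were 58.7%, 56.2% and 51.4%, and among those with an FPKM of at least 100 they were 87.8%, 86.7% and 87.4%. At least 1 "T" was found near 70 members (87.5%), beside 48.1% of all named loci and 83% of those with an FPKM of at least 100. At least 3 "T" were found near 57 members (71.2%), beside 32.8% and 65.6%. At least 1 "D" was found near 55 members (68.8%), beside 35% and 56.2%, and at least 1 "A" near 52 (65.0%), beside 41.3% and 62.3%. Among the 34 members with their own coordinates, 31 had H3K4me3 and at least 1 "T" and 24 had at least 3 "T". In percent these were 91.2, 91.2 and 70.6, beside 94.3%, 90.4% and 71.3% of the 418 named loci with their own coordinates and an FPKM of at least 100. The median was 4 "T" per member and also 4 per locus in the 647 other named loci with an FPKM of at least 100, so members carried about as many as those. The sets were not matched for expression, as the median FPKM was 999 in members and 170 in those 647 loci. The median number of "T" was 3 for mitochondrial ribosomal protein loci and 3 for proteasome loci.

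**Figure D2:**
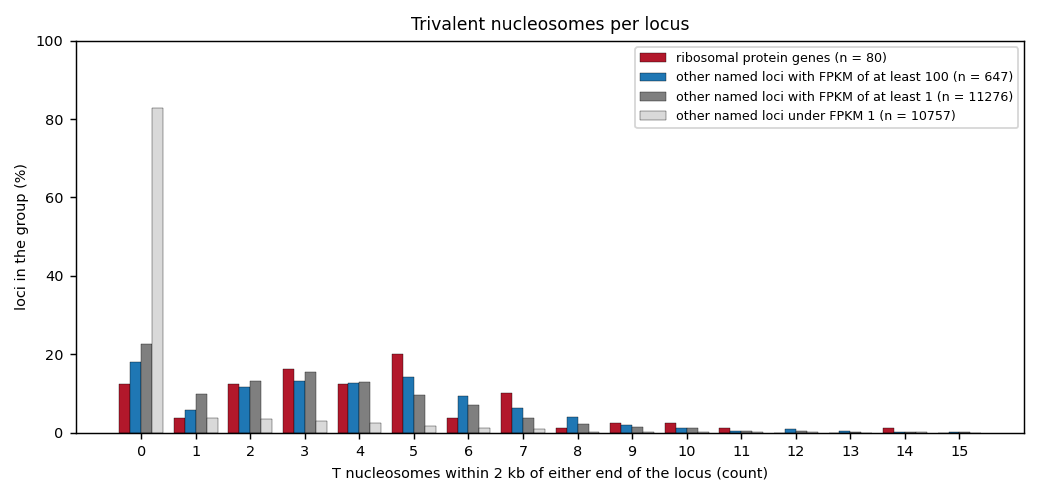
Share of loci in each group (per cent) by the number of "T" nucleosomes within 2 kb of either end of the locus. Of the 80 members, 10 had 0 "T" and 16 had 5, while 82.9% of the loci under 1 FPKM had 0.

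The members with the most "T" were RPL31 with 14, RPL4 with 11, RPL36 and RPS6 with 10 each, and RPS12 and RPS25 with 9 each. RPL31 lies at the exit of the peptide tunnel, RPL4 lines the tunnel, and RPS6 is phosphorylated by S6 kinase downstream of mTOR. All of these share their coordinates with another locus. The locus of RPL31 is 149236 bp long and is listed also for TBC1D8, and only 5 of its 14 "T" lay at the end taken as its start. RPS6, in a locus of 149792 bp shared with DENND4C, had 5 of 10 there, and RPL36 had 2 of 10. RPS12, shared only with 3 snoRNAs, had all 9 there.

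H3K4me3 was absent near both ends of 7 members, namely RPL10L, RPL39L, RPL3L, RPL27, RPL28, RPS23 and RPL7. The 3 paralogs among them were the members with the least RNA, whereas RPL27, a large subunit gene, had 1380 and 1407 FPKM and RPL7 had 1175 and 1184. RPS23, which lies at the decoding centre, had 398 and 404. RPL27, RPL28, RPS23 and RPL7 are each listed in a locus shared with another gene, whose ends need not be those of the member. When every position inside the locus and within 2 kb of it was counted, an alternative added after the data had been seen, RPL7 had 10 "T", RPS23 6, RPL27 5, RPL28 5 and RPL3L 2. RPL39L and RPL10L still had 0.

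The repressive marks were rare. H3K27me3 was found at 1 position near 1 member, RPL18, compared with 9.82% of all named loci and 1.52% of those with an FPKM of at least 100. RPL18 had 6 "A" and 0 "T" around the ends of a locus shared with several genes. H3K9me3 was found near 5 members (6.25%), compared with 3.9% of all named loci and 4.14% of those with an FPKM of at least 100. Near RPL10L it stood alone, at 2 positions. Near the others it was on nucleosomes that also carried H3K4me3, H3K9ac and H3K27ac, 2 of them near RPLP0 and 1 each near RPL8, RPL4 and RPL36A. These 5 positions, 0.164% of those near members (0.0531 to 0.381), were not counted as "T". Near other loci with an FPKM of at least 100, 12 of 24793 positions carried that set (0.0484%).

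**Figure D3:**
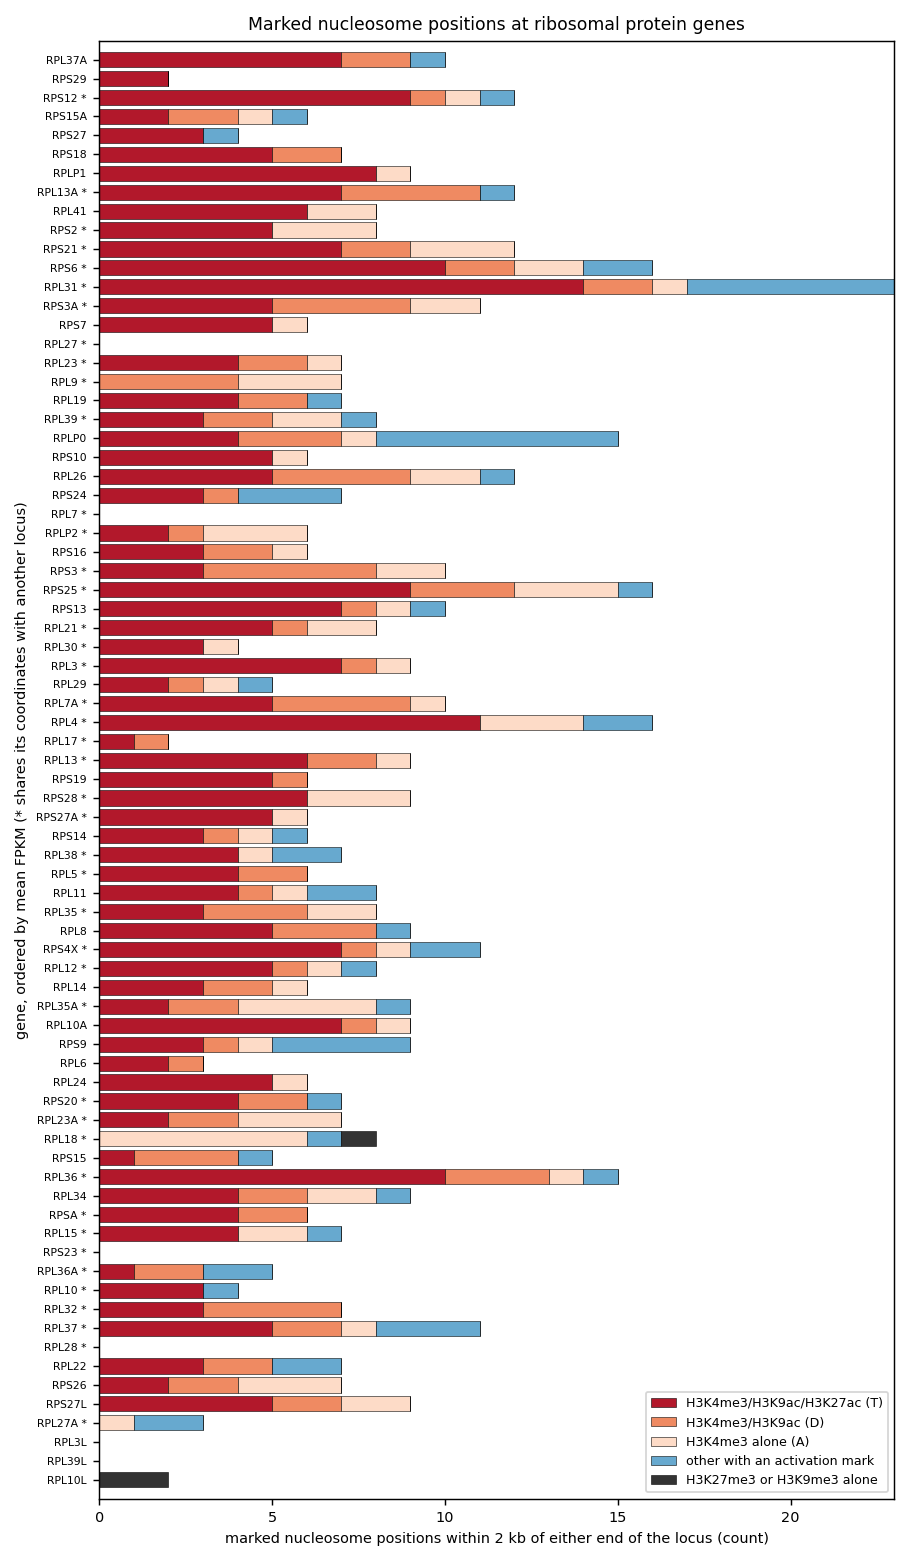
Marked nucleosome positions (count) within 2 kb of either end of 76 of the 80 members, stacked by their set of marks and ordered by FPKM, with an asterisk for loci that share coordinates. RPL31 reaches 23 marked positions, while RPL27, RPL7, RPS23, RPL28, RPL3L and RPL39L have 0.

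FPKM varied with the number of "T" across members, with much overlap. Its median was 327 in 10 members with 0 "T", 797 in 13 with 1 or 2 and 941 in 23 with 3 or 4. It was 1001 in 19 with 5 or 6 and 1321 in 15 with 7 or more. The 10 with 0 "T" were the paralogs RPL10L, RPL39L and RPL3L and members that share their coordinates with other loci. Of the 15 with 7 or more, 4 had their own coordinates. Spearman's rho was 0.39 over the 80 members and 0.35 over the 78 with an FPKM of at least 1, compared with 0.59 over all 22113 named loci. Over the 34 members with their own coordinates, which include the paralogs, it was 0.43. With only the "T" at the end taken as the start, over 30 members with their own coordinates and a single symbol and without paralogs, it was 0.25. These are descriptions across genes of the same libraries, and genes are not replicates. RPS29, with 2 "T" and a mean of 2706 FPKM, and RPL36, with 10 "T" and a mean of 542, lay far from such a trend. The "T" of RPS29 lay at 1660 and 1834 bp from the end taken as its start, near the edge of the window. Over its whole locus there were 3. The locus of RPL36 is listed jointly with HSD11B1L, and 2 of its 10 "T" lay at the end taken as its start.

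Positions were then aligned to the transcription start site (TSS) in the 30 members that have their own coordinates and a single symbol and are no paralogs. The strand came from RefSeq or, where it had no entry, from the order of locus numbering. The locus end at which that strand begins was taken as the TSS, and it need not be the start in use. In 23 members with their own coordinates, a single symbol and a locus of over 4 kb, H3K4me3 was found only at the end taken as the TSS in 20, at both ends in 2 and at neither in 1, which was RPL39L. RPL3L, listed jointly with SEPX1, was not among the 23 and had no H3K4me3 at either end. In these 30 members, 24 "T" lay upstream of the TSS and 92 downstream. More lay downstream in 26 members, more upstream in 3 (RPS18, RPLP0 and RPL8), and the numbers were equal in RPS15A. Downstream of RPLP0 and RPL8 lay 2 and 1 nucleosomes with the marks of "T" and H3K9me3, which were not counted as "T". The upstream excess of RPLP0 and RPL8 depends on this rule. At least 3 "T" lay downstream in 17. The medians were 0 upstream and 3 downstream, and they were also 0 and 3 in 357 other loci with an FPKM of at least 100.

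**Figure D4:**
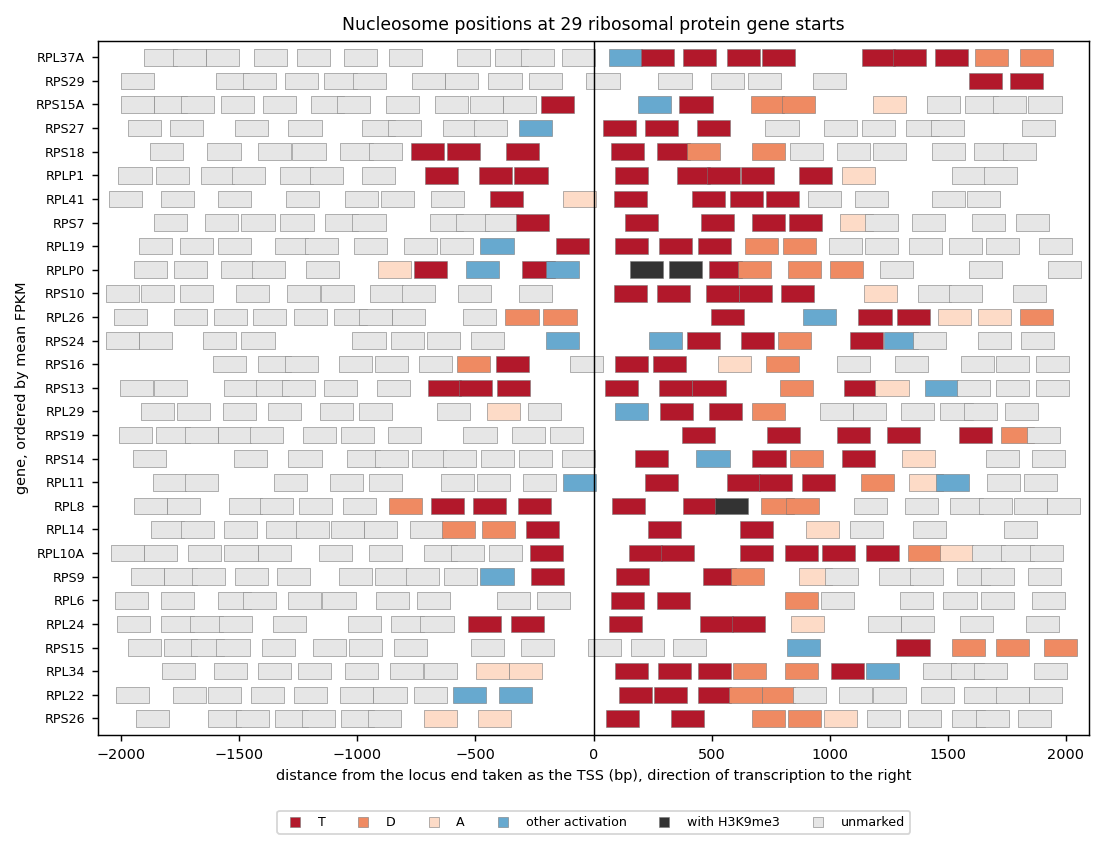
Nucleosome positions (boxes) around the TSS of 29 of the 30 members by distance in bp, with transcription to the right, coloured by their set of marks and ordered by FPKM. Most "T" follow the TSS, and in RPS29 and RPS15 the first marked positions lie further downstream. The TSS is the locus end taken as the start, which need not be the start in use.

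The distance between the midpoints of the nucleosomes on either side of the TSS had a median of 401 bp in members (quartiles 310.5 and 449) and of 370 bp in the other loci with an FPKM of at least 100 (240 and 503). The first position downstream had its midpoint at a median of 162 bp. It was "T" in 73.3% of members (54.1 to 87.7), the second in 24 of 30 (61.4% to 92.3%), the third in 63.3% (43.9 to 80.1) and the fourth in 9 of 30 (14.7% to 49.4%). In the other loci the first was "T" in 250 of 357, and the next 3 in 72.0%, 54.2% and 34.7%, and each share was inside the interval of the members. Upstream, the position nearest to the TSS was "T" in 36.7% of members (19.9 to 56.1) and 31.9% of the other loci.

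At the fourth position downstream, at a median of 826 bp, 13 of 30 members carried "D" (43.3%, 25.5 to 62.6), compared with 19.2% (15.2 to 23.7) of the other loci with an FPKM of at least 100. This position was singled out after the values of 14 positions had been seen, and no test was made. RPL34, RPL22, RPS26 and RPL8 were among the members in which "D" followed "T" along the gene.

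**Figure D5:**
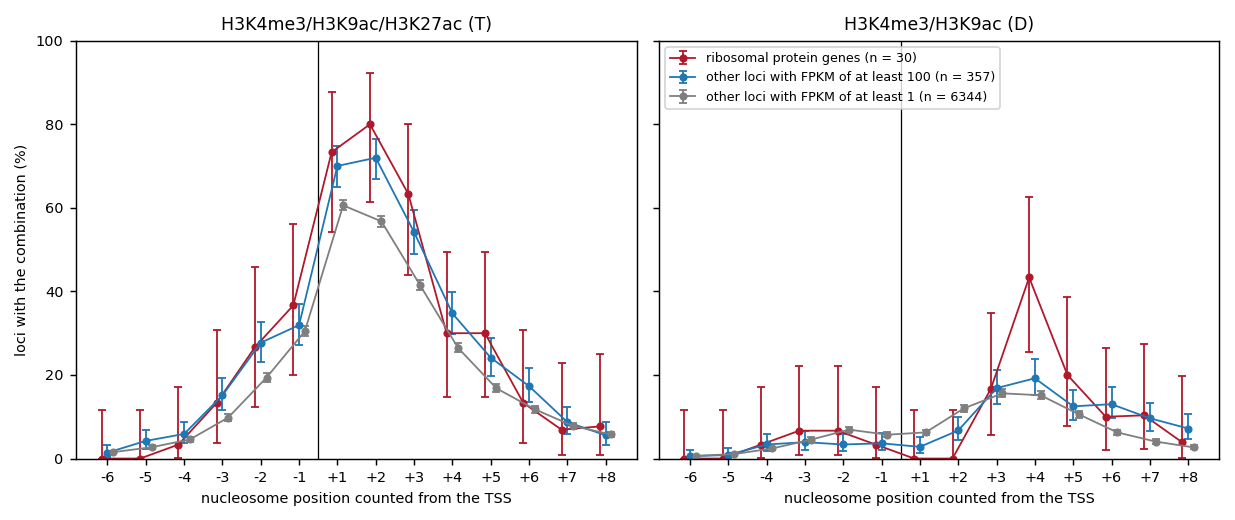
Share of loci (per cent, with 95% Clopper-Pearson intervals) whose nucleosome at each position counted from the TSS is "T" (left) or "D" (right), for 30 members and for other loci with an FPKM of at least 100 or 1. Members follow the other loci in "T" and reach 43.3% in "D" at the fourth position downstream.

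Other genes of translation gave a background to these values. Among ribosomal proteins that the naming rule leaves out, FAU, made as a fusion with a ubiquitin-like protein, had a mean FPKM of 483. RPL36AL had 236, the copies RPL26L1 and RPL22L1 had 42.2 and 15.7, and RPL7L1 had 89.1 and 0.332 in its 2 loci. The elongation factor EEF1A1, which brings aminoacyl-tRNA to the ribosome, had 3740 and exceeded every member, whereas its muscle and neuron copy EEF1A2 had 0.910. EEF1G had 778, EEF1B2 660 and EEF2 590. Of 12 loci of other TOP mRNA genes, 10 had an FPKM of at least 100, with TPT1 at 2059 and GNB2L1, which encodes a scaffold protein on the small subunit, at 876. Of 19 ribosome biogenesis genes, 3 did, and their median was 45.1. NOP56, a snoRNP protein, had 2436 FPKM in run 1 and 162 in run 2, a larger difference than that of any member.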

How the data were processed

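The authors deposited RNA-Seq values of 1 sample as FPKM in 2 columns, laid out as Cuffdiff writes them; the p-values and q-values of their own comparison were not used. DANPOS nucleosome positions and NUCLIZE peaks were deposited by the authors as coordinates with an identifier, and peaks of at least 4-fold enrichment had been kept. No read counts are given, so depth is unknown. The submitters' processing notes name hg19, BWA, TopHat2 2.1.0, Bowtie, HOMER 4.7 and edgeR without their roles.

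Each peak was assigned to the position whose identifier it carries. A position was near a locus if its midpoint lay within 2 kb of either end. The mean of both runs was used, and 5 copies of RPS18 on alternate haplotypes, all listed at 0, were left out. Genes named are the 8 highest and 8 lowest members, the 5 with the most "T", those without H3K4me3 or with a repressive mark, the 4 with the largest run difference, the stalk genes, paralogs with their parents, and RPSA; RPS25 is added as a tie. Members in the passages on promoters and on aligned positions that fall outside this rule were chosen after their values were seen. The members and all lists were chosen with earlier results of these data known. A few genes are counted in the totals and not reported here by name or in the plots that label genes. Counting was tested on simulated data. Tables were handled in pandas 2.3.3 and numpy 2.4.6 under Python 3.11.15, intervals came from scipy 1.17.1 and plots from matplotlib 3.10.9.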

Additional observations from a re-analysis of the deposited data

How the results depend on the processing

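Of 118 alternatives over the results on members, 90 stayed within the counting interval or the limit set for the value, and 28 moved. None reversed, but most of these values are shares, counts or medians, which have no direction to reverse. A window of 1 kb left 60.0% of members with at least 3 "T", and the share of positions was 27.8% marked and 17.6% "T"; with 5 kb these were 10.6% and 5.36%. With loci of their own coordinates, 17.9% of positions were marked, H3K27me3 was near 0 members and members held 4.14% of the summed FPKM. At the end taken as the TSS alone, 32.3% of positions were marked and 17.9% "T", with H3K27me3 near 0 members. The whole locus with 2 kb on either side, added after the data had been seen, gave H3K4me3, H3K9ac, H3K27ac and at least 1 "T" in 97.5% of members each and at least 3 "T" in 86.2%, with 7.51% of positions marked and 3.64% "T". The start of the 30 members with their own coordinates and a single symbol and without paralogs was also added later. It gave 100% for each of these marks and for at least 1 "T". H3K27me3 was at 0%, and 35.3% of positions were marked and 20.4% "T". This set leaves out RPL10L, RPL39L and RPL3L, the only members with their own coordinates that had no H3K4me3 and no "T". The 100% therefore follows in part from the choice of the set. Without paralogs, 100% of members had an FPKM of at least 1 and 100% at least 100. The difference between subunits was 0.39 over members with an FPKM of at least 1. No paired analysis was possible because there is 1 sample per assay. Unknown depth, shared coordinates of 46 members and unstated counting of pseudogene reads limit all values.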
